A study of Mus musculus with 8 samples.

Results

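The genes described here encode the nuclear subunits of the mitochondrial oxidative phosphorylation complexes, measured in liver RNA of miR-223KO and WT mice. Members were the non-control probes of the authors' deposited table whose gene symbol begins with Nduf, Uqcr or Atp5, or with Cox4, Cox5, Cox6, Cox7 or Cox8, or is Sdha, Sdhb, Sdhc, Sdhd or Cyc1. That table holds no scanner probe flagged as an outlier on more than 4 of 8 arrays, and 31 subunit probes are outside it. From it the rule, which itself used no measured value, took 105 of 40646 probes, for 73 of 21180 gene symbols. Of these, 52 probes (33 genes) belonged to complex I, 10 probes (7 genes) to complex I assembly factors, 5 probes (3 genes) to complex II, 7 probes (7 genes) to complex III, 10 probes (10 genes) to complex IV and 21 probes (13 genes) to complex V. Atp5s and Atp5sl carry older names of genes that are not subunits, now Dmac2l and Dmac2, and Atp5c1-ps is a pseudogene. All of these are counted with complex V by their symbols. Ndufa4 stands here with complex I by its symbol, although its protein is now known to sit in complex IV. The arrays compared 4 miR-223KO liver samples with 4 WT liver samples, all labelled as male, C57BL/6J and fed a high-fat diet for 3 months. The miR-223KO samples carry a knockout of the microRNA miR-223, and the labels give neither a cell-type restriction for it nor the age of the mice. Loss of miR-223 itself was not measured here.

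In oxidative phosphorylation, complexes I and II pass electrons from NADH and succinate to ubiquinone, and complexes III and IV pass them on through cytochrome c to oxygen. Complexes I, III and IV pump protons across the inner mitochondrial membrane, and complex V, the ATP synthase, uses the proton gradient to make ATP. Most subunits are encoded in the nucleus and a few core ones in mitochondrial DNA, and hepatocytes hold many mitochondria. miR-223 is a microRNA abundant in myeloid cells, and microRNAs lower target mRNAs mainly by pairing of their seed with sites in them.

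The mature sequence of miR-223-3p is shown because its seed, bases 2 to 8 in capitals, defines the sites that could be sought in the members. RefSeq (GRCm38.p6) places it at chrX:96242884-96242905, plus strand.
mmu-miR-223-3p: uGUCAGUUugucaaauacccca
The DNA complement of that seed, AACTGAC, stood in 1 of the 105 member probes (0.952%) and in 150 of the 40646 probes of the deposited table (0.369%). The member probe was that of Ndufs8, an iron-sulfur subunit of complex I whose gene lies on chromosome 19, and the 7 letters are in capitals below. A probe covers only 60 bases of a transcript, so the rest of each transcript was not searched.
Ndufs8 probe: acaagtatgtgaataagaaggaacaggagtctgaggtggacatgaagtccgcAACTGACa
Ndufs8 had log2 ratios of -0.28, -0.10, -0.34 and 0.011 on the miR-223KO arrays, against -0.11, -0.24, -0.07 and -0.10 on the WT arrays. The groups overlapped, and the log2 fold change was -0.046 ± 0.17 (SE; limma, unadjusted p = 0.787, adjusted p = 0.9999). In the authors' deposited table the same probe had a log2 fold change of -0.41, so its size depended on the processing.

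Promoters of members were searched on both strands for short cores bound by regulators of respiratory genes. RefSeq windows of 300 bases (250 before to 50 after the gene start) were found for 57 of 70 member genes, as 61 promoters. The NRF1 core GCGCATGCG stood in 8 of 61 member promoters (13.1%), against 1.75% of all 32851 promoters. The ETS core CCGGAAG, which GABPA binds, stood in 8 member promoters (13.1%), against 8.86% of all. The YY1 core AAGATGGC stood in 10 member promoters (16.4%), against 2.75% of all. Any of these cores stood in the promoters of 23 genes, and those of 3 genes (Atp5j, Atp5k and Uqcr11) held more than 1 of them. Both promoters with an NRF1 and an ETS core are shown on the strand of the gene, the minus strand of GRCm38.p6, with the matches on either strand in capitals. The window of Uqcr11, a small complex III subunit, is chr10:80406772-80407071, and that of Atp5k, the e subunit of the ATP synthase, is chr5:108434350-108434649, where NRF1 matches on both strands overlap.
Uqcr11 promoter: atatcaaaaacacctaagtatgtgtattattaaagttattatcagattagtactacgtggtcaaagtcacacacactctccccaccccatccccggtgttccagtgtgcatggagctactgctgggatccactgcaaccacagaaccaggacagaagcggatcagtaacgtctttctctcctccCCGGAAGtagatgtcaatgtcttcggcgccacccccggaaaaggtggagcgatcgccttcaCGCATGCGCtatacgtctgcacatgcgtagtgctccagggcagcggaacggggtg
Atp5k promoter: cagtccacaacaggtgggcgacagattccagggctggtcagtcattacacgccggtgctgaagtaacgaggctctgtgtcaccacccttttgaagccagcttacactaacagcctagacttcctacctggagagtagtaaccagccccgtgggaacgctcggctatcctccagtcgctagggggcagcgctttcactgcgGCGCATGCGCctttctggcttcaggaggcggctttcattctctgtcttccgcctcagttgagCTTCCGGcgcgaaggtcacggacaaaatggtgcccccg

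Liver RNA was labelled with Cy5 on every array, and a reference labelled as Ambion mouse assorted total RNA with Cy3, so each value is a log2 ratio of Cy5 over Cy3. The reference channel resembled the liver channel, while its label gives assorted RNA and no named tissue. Cy3 and Cy5 signals of the same array correlated at r = 0.936 to 0.980 over 41174 probes, as a description across probes. Albumin had a mean log2 signal of 17.4 in Cy5, against 16.5 in Cy3, and the 13 hepatocyte marker probes had a median percentile of 99.2 in both channels. The 20 probes of skeletal and heart muscle markers had a median percentile of 33.9 in Cy3 and 31.5 in Cy5. Brain and kidney marker probes had median percentiles of 30.4 and 38.6 in Cy3. Some such markers were high in both channels, among them Syn1 (99.7 in Cy3, 99.5 in Cy5) and Myh6 (96.8 and 97.3). Whether the reference went against its label was thus not settled. The log2 ratios were therefore not read as liver against mixed tissue, only compared between arrays. In Cy5, 49.5% to 69.8% of spots stood well above background, and log2 ratios correlated at 0.26 to 0.55 between arrays over all probes tested and at 0.12 to 0.65 over member probes, across probes that are not independent. The arrays were on 2 slides, each with 2 arrays of each group.

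The members were bright, with a median Cy5 percentile of 93.4, and 61 of 105 lay above the 90th percentile of all probes. Of the 105 probes, 93 were well above background in Cy5 on at least 4 of 8 arrays, and 67 of these (53 genes) kept at least 3 unflagged values in each group and were tested. The other 26 were lost to outlier flags, which the scanner software set on spots with uneven pixels, and 12 were too dim. The flags took 117 of 840 member values (13.9%), 64 on miR-223KO arrays and 53 on WT arrays, and all were for non-uniformity. The flagged member probes ranged from 2 on miR-223KO array 2 to 29 on miR-223KO array 3. Over all probes, brighter ones were flagged more often, with 0.361% of values flagged up to a mean log2 signal of 8, 1.29% from 8 to 10, 16.4% from 10 to 12 and 49.4% above 12. As a result, 16 member genes had no tested probe: Ndufa4, Ndufa6, Ndufa9, Ndufb3, Ndufb4, Ndufb9, Ndufb10, Ndufs5, Sdhd, Cyc1, Uqcrc1, Uqcrfs1, Atp5c1, Atp5f1, Atp5g3 and Atp5o. A further 4 genes, Ndufb2, Uqcrq, Cox7b2 and Cox8c, had only dim member probes.

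**Figure D1:**
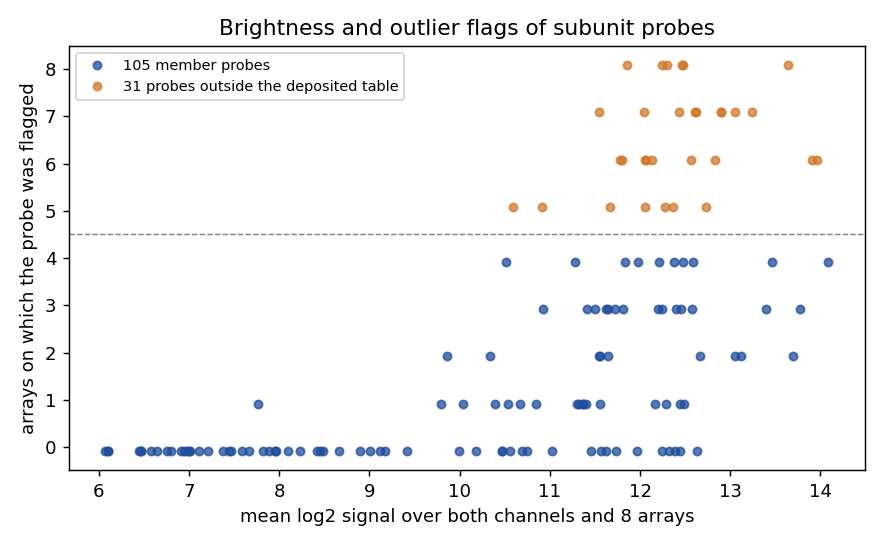
Mean log2 signal over both channels and 8 arrays (x axis) against the number of arrays on which a probe was flagged (y axis), for the 105 member probes and for 31 further subunit probes on the arrays that are outside the deposited table. No member probe was flagged on more than 4 arrays, and each of the 31 was flagged on 5 to 8.

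No member differed between miR-223KO and WT livers past the threshold. In limma, 0 of 67 member probes had an adjusted p under 0.05, against 0.00836% of the 23930 probes tested, and 0 had an unadjusted p under 0.05, against 4.54% of all. The log2 fold changes (miR-223KO minus WT) ran from -0.29 to 0.33, with a median of -0.021, beside a median of -0.0030 over all probes. Of the members, 30 had a positive and 37 a negative value, and the interquartile range was -0.12 to 0.10, beside -0.15 to 0.14 over all probes. All 67 95% intervals lay within a 2-fold change in either direction and 29 within 1.5-fold, while 23040 of all 23930 probes had an interval within 2-fold. The median standard error was 0.217 for members and 0.203 for all probes. In bulk liver, fewer cells of a type and less RNA per cell cannot be told apart.

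Array by array, the median log2 ratio of the 53 member genes was -0.081, 0.036, -0.056 and 0.018 on the miR-223KO arrays, against -0.12, -0.15, -0.0019 and -0.052 on the WT arrays. These averaged -0.021 ± 0.057 in miR-223KO livers and -0.081 ± 0.068 in WT livers (SD, n = 4 each), so the groups overlapped. The median log2 fold change of the member genes was -0.020 over both slides, 0.083 within slide 1 and -0.11 within slide 2, so it took opposite signs on the slides. Each slide held 2 arrays of each group, and its fit took only probes unflagged on all 4. That left 56 member probes on slide 1 and 50 on slide 2, so the sets compared were not the same. The averaged array medians differed by 0.060 (miR-223KO minus WT), so the sign also depended on how the values were summarised.

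**Figure D2:**
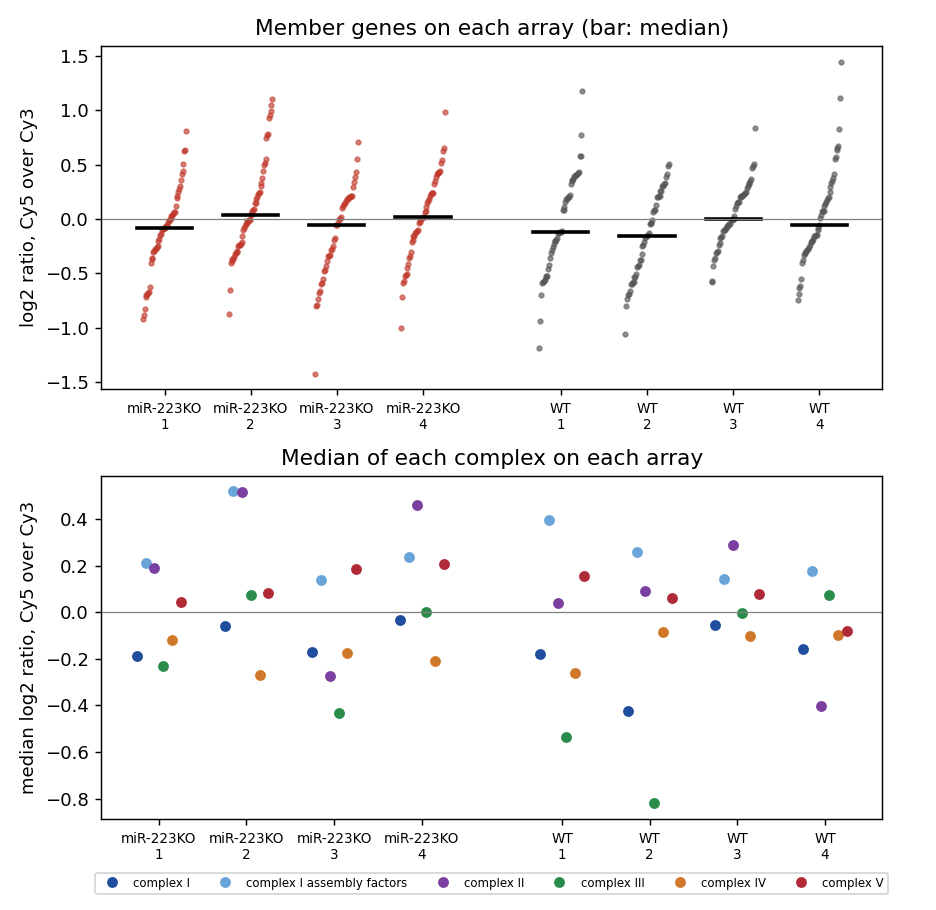
Upper panel: log2 ratio of Cy5 over Cy3 of each of the 53 tested member genes on the 4 miR-223KO and 4 WT arrays, with bars at the medians. Lower panel: the median of each complex on each array, where the miR-223KO and WT points overlap and complexes II and III, with 2 and 3 genes, spread the most.

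Complex I, the NADH dehydrogenase, had 24 tested genes with a median log2 fold change of -0.034, 11 positive and 13 negative. The highest was Ndufa11, a membrane-arm subunit, with -0.21 to 0.06 and a mean of -0.047 ± 0.12 on miR-223KO arrays, against -0.69 to 0.19 and a mean of -0.35 ± 0.38 on WT arrays (SD, n = 4 each). Its log2 fold change was 0.31 ± 0.20 (SE; limma, adjusted p = 0.985). The groups overlapped because WT array 1 lay above all miR-223KO arrays. Ndufa3, an accessory subunit, had 0.20, 1.11, 0.21 and 0.17 on miR-223KO arrays, against -0.19, -0.32, -0.24 and 1.45 on WT arrays. One array in each group stood far above the other three values, and the log2 fold change was 0.25 ± 0.34 (SE). At the other end, Ndufb11, a subunit encoded on the X chromosome, had -0.36, 0.15, -1.42 and 0.15 on miR-223KO arrays, against -0.56, -0.58, 0.16 and 0.55 on WT arrays. Its log2 fold change was -0.26 ± 0.33 (SE), and it was 0.47 within slide 1 and -0.99 within slide 2. Ndufs4, an accessory subunit whose loss causes Leigh-like disease in mice, had 0.63, 0.75, -0.04 and 0.33 on miR-223KO arrays, against 1.18, 0.38, 0.51 and 0.64 on WT arrays. These values overlapped too, with a log2 fold change of -0.26 ± 0.22 (SE). Ndufs1, the large iron-sulfur subunit of the electron-transfer arm, had a log2 fold change of 0.17 ± 0.31 (SE) and its miR-223KO values ran from -0.66 to 0.99.

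The complex I assembly factors, which build the enzyme without staying in it, were all tested: 7 genes, 4 positive and 3 negative, with a median log2 fold change of 0.011, which ran from -0.12 to 0.098 with an array left out. Ndufaf2 had the lowest value of all tested members, and the smallest member p. It had -0.29, 0.04, -0.19 and -0.57 on miR-223KO arrays, against 0.11, -0.17, 0.03 and 0.20 on WT arrays, for a log2 fold change of -0.29 ± 0.18 (SE; limma, unadjusted p = 0.130, adjusted p = 0.985). The groups overlapped at miR-223KO array 2. Ndufaf6 stood at -0.13 ± 0.18, Ndufaf3 at 0.16 ± 0.17 and Ndufaf7, which methylates a complex I subunit, at 0.28 ± 0.18 (log2 fold change, SE).

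Ndufaf7 is also where 2 probes of one gene differed most, and both 60-base probes are shown for that reason. The gene lies on chromosome 17.
Ndufaf7 probe A_52_P180826: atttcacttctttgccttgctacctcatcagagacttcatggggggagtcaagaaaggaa
Ndufaf7 probe A_52_P406459: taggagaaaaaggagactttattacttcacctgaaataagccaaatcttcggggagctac
The first probe had 0.44, 0.93, 0.43 and 0.55 on miR-223KO arrays, against 0.42, 0.49, 0.14 and 0.18 on WT arrays. The second had 0.51, 0.68, -0.23 and 0.85 on miR-223KO arrays, against 1.21, 0.65, 0.64 and 0.25 on WT arrays. Their log2 fold changes were 0.28 and -0.23, a gap of 0.51. Of 12 genes with more than 1 tested probe, 7 had probes of opposite sign, and the median gap between the highest and lowest probe was 0.20.

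Complex II, succinate dehydrogenase, had 2 tested genes. Sdha, the flavoprotein that oxidises succinate, was measured by 3 probes. Probe A_51_P410823 had 0.36, 0.25 and 0.41 on miR-223KO arrays 1, 2 and 4, against 0.21, -0.15 and 0.21 on WT arrays 1, 2 and 3, with the other array of each group flagged. This was the only 1 of 67 member probes whose groups did not overlap, against 3.04% of all probes tested, and its log2 fold change was 0.25 ± 0.21 (SE; limma, adjusted p = 0.985). With the flagged spots kept, miR-223KO array 3 stood at -0.73 and WT array 4 at 0.32, the groups overlapped and the log2 fold change was -0.073. Probe A_52_P458708, with no flag, had -0.24, -0.20, -0.09 and 0.18 on miR-223KO arrays, against 0.03, 0.13, 0.22 and 0.07 on WT arrays, for a log2 fold change of -0.20 ± 0.17 (SE). Both tested probes thus gave opposite signs, and the third, A_52_P109503, lost to flags, stood at 0.30 ± 0.23 (SE) with flagged spots kept. Sdhc, a membrane anchor of the enzyme, stood at 0.22 ± 0.24 (log2 fold change, SE), with values of -0.27 to 0.78 on miR-223KO arrays and -0.40 to 0.37 on WT arrays.

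Complex III, the cytochrome bc1 complex, had 3 tested genes. Uqcrc2, a core protein, had a log2 fold change of 0.17 ± 0.26, and the small subunits Uqcr10 and Uqcr11 had -0.0076 ± 0.31 and -0.19 ± 0.22 (SE). Uqcr10 had -0.06, 0.23, -0.34 and 0.42 on miR-223KO arrays, against -0.54, -0.58, 0.30 and 1.11 on WT arrays. The WT arrays of slide 1 were low and those of slide 2 high, and the fold change was 0.65 within slide 1 and -0.66 within slide 2.

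Complex IV, cytochrome c oxidase, had 8 tested genes with a median log2 fold change of -0.021, 3 positive and 5 negative. Cox7a2, the form used in liver, had -0.82, -0.30, -0.79 and -0.59 on miR-223KO arrays, against -0.52, -0.38, -0.31 and -0.14 on WT arrays. Its groups overlapped and its log2 fold change was -0.29 ± 0.18 (SE; limma, adjusted p = 0.985). A second Cox7a2 probe, outside the deposited table and flagged on 6 of 8 arrays, stood at 0.043 ± 0.19 with flagged spots kept. Cox6c, a subunit with no tissue isoforms, stood at -0.17 ± 0.23, and Cox7a2l, a supercomplex assembly factor related to Cox7a2, at 0.23 ± 0.19 (log2 fold change, SE). The Cox7a2l value left out a flagged spot of WT array 3, which read 1.30, and with it the log2 fold change was -0.22. The isoforms typical of heart and skeletal muscle, Cox6a2, Cox7a1 and Cox8b, had log2 fold changes of -0.057 ± 0.20, -0.023 ± 0.21 and -0.020 ± 0.18 (SE). Their mean log2 signals in Cy5 were low, at 7.23, 7.33 and 6.63 (percentiles 58.1, 59.9 and 41.3). Cox6b2, known from testis, had 0.017 ± 0.21, and Cox4i2, an isoform known from lung and low oxygen, had 0.21 ± 0.20. Mean log2 signals of Cox6b2 and Cox4i2, over both channels, were also low, at 7.83 and 7.38. Cox4i2 had -0.25, 0.09, 0.39 and 0.38 on miR-223KO arrays, against 0.18, 0.20, -0.30 and -0.29 on WT arrays. Its values overlapped, and its fold change was -0.27 within slide 1 and 0.68 within slide 2. The testis isoforms Cox7b2 and Cox8c were well above background in Cy5 on 0 of 8 arrays.

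Complex V, the ATP synthase, had 9 tested genes by symbol, with a median log2 fold change of -0.022, 4 positive and 5 negative. These include Atp5s (0.036) and Atp5sl (-0.022), which are not subunits, and the pseudogene Atp5c1-ps (-0.075). The median is the value of Atp5sl, so it does not describe the ATP synthase subunits alone. Atp5a1, the alpha subunit of the catalytic head, had the highest value of all tested members. It had -0.37, 0.44 and 0.23 on miR-223KO arrays 1, 2 and 4, with array 3 flagged, against -0.23, -0.15, 0.15 and -0.69 on WT arrays. The groups overlapped, with a log2 fold change of 0.33 ± 0.25 (SE; limma, unadjusted p = 0.196, adjusted p = 0.985). That value comes from probe A_51_P402496, and the second Atp5a1 probe, lost to flags, stood at -0.056 ± 0.25 with flagged spots kept. Atp5b, the catalytic beta subunit, had -0.89, 0.55, 0.20 and -0.19 on miR-223KO arrays, against 0.09, 0.32, -0.16 and -0.16 on WT arrays, a log2 fold change of -0.10 ± 0.26 (SE). That probe, A_51_P162373, had a mean log2 signal of only 8.10. The 3 other Atp5b probes, with mean log2 signals of 12.7 to 14.1, were lost to flags, and with flagged spots kept they stood at 0.20 ± 0.18, 0.081 ± 0.20 and -0.16 ± 0.21 (SE). Atp5g2, of the proton-carrying ring, stood at 0.12 ± 0.22 and Atp5j2, a membrane subunit, at -0.14 ± 0.18 by a probe with a mean log2 signal of 7.21. A further Atp5j2 probe outside the deposited table, with 7 of 8 spots flagged, stood at -0.27 ± 0.24 with flagged spots kept. Atp5sl, measured by 2 probes, stood at -0.022 on both.

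**Figure D3:**
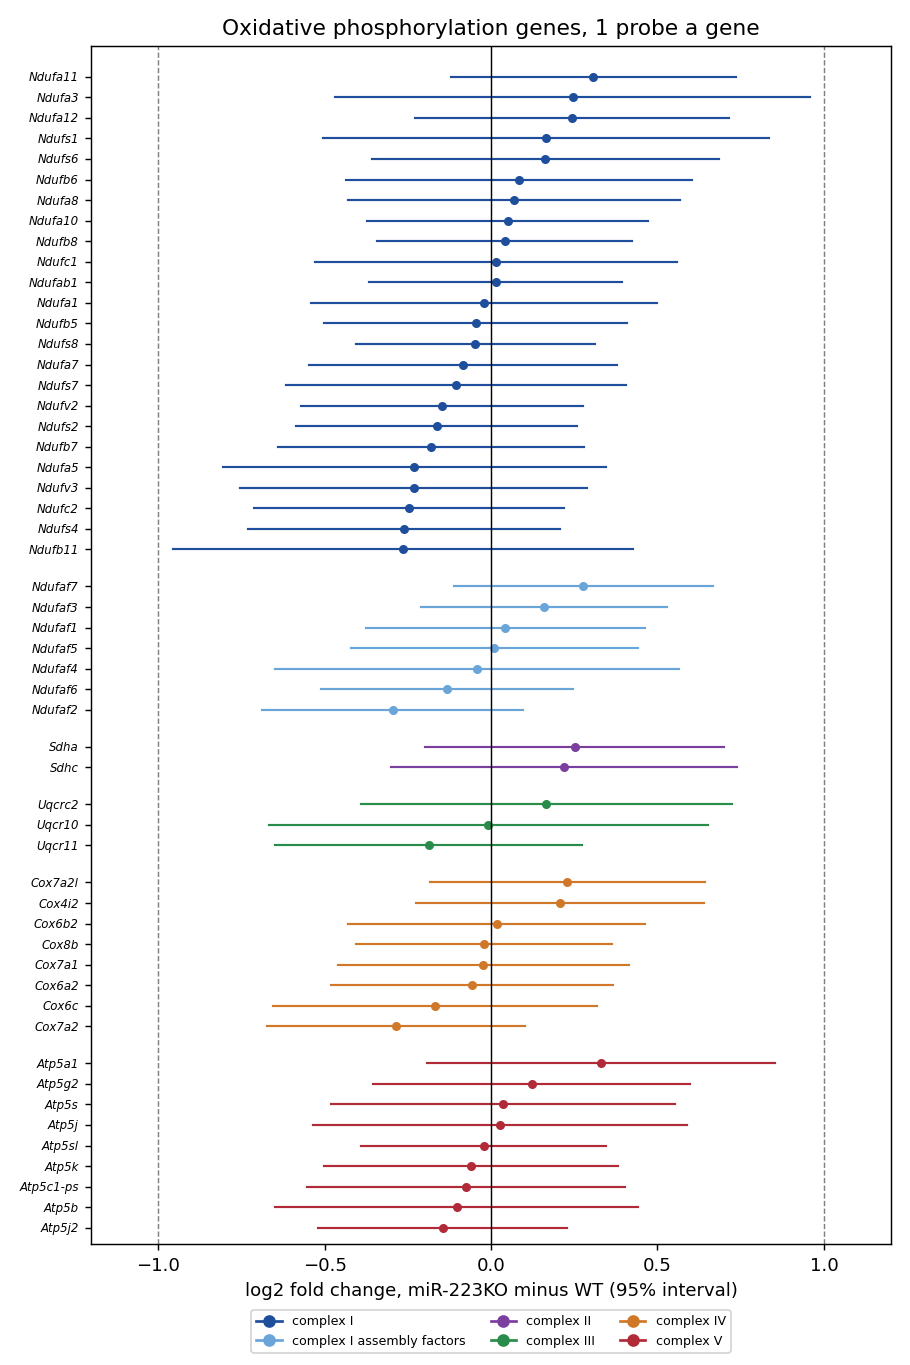
Log2 fold change (miR-223KO minus WT) with its 95% interval (limma) for the 53 tested member genes, 1 tested probe a gene, coloured by complex. Every interval covers 0, and all lie inside the dashed lines at a 2-fold change in either direction.

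Keeping the outlier-flagged spots brought 93 member probes into the fit. Of these, 0 had an adjusted p under 0.05, against 0.0039% of the 25665 probes then tested, 2 had an unadjusted p under 0.05, against 4.64% of all, and 2 had groups that did not overlap, against 2.72% of all. The 26 probes that had been lost to flags had a median log2 fold change of 0.044, with 14 positive and 12 negative. Ndufs5, an accessory complex I subunit, had -0.75, -0.20, -1.15 and -0.68 on miR-223KO arrays, against -0.11, -0.30, 0.41 and -0.41 on WT arrays, where arrays 1, 2 and 3 were flagged. Its log2 fold change was -0.59 ± 0.23 (SE; limma, unadjusted p = 0.0211, adjusted p = 0.985), and miR-223KO array 2 lay among the WT values. Sdhd, the other membrane anchor of complex II, had -0.28, -0.13, 0.07 and -0.06 on miR-223KO arrays, against -0.33, -0.52, -0.50 and -0.82 on WT arrays. All its miR-223KO values lay above all its WT values, 4 of the 8 spots were flagged, and the log2 fold change was 0.44 ± 0.18 (SE; limma, unadjusted p = 0.0255, adjusted p = 0.985). Ndufa1, a complex I subunit encoded on the X chromosome, was the other probe without overlap, at 0.37 ± 0.19 for probe A_51_P472405, while its second probe stood at -0.021 with flagged spots left out. Among core subunits of complex III, Cyc1, which holds cytochrome c1, stood at 0.38 ± 0.19, the Rieske protein Uqcrfs1 at 0.35 ± 0.23 and Uqcrc1 at 0.048 ± 0.19. Atp5c1, the rotor shaft of the ATP synthase, stood at -0.45 ± 0.29 and Ndufa4 at -0.091 ± 0.20. The flagged member values differed from the mean of the unflagged values of their probe and group by a median of 0.36 in size, against 0.23 for unflagged values left out in turn.

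The arrays also held 31 subunit probes, for 29 genes, that the deposited table does not list and that were named through RefSeq accessions. For 22 of these genes there was no member probe by symbol, among them the ubiquitous or liver forms Cox4i1, Cox5a, Cox5b, Cox6a1, Cox6b1, Cox7b, Cox7c and Cox8a. Probes listed in the table under other symbols were not searched for. All 620 probes of the arrays outside the deposited table were flagged on 5 to 8 arrays, and none of the 40554 scanner probes inside it on more than 4. Of the values of the 31 probes, 200 of 248 (80.6%) were flagged, and their median Cy5 percentile was 97.7. With flagged spots kept, their median log2 fold change was 0.0077, with 16 positive and 15 negative, and 0 had an adjusted p under 0.05, while 3 had an unadjusted p under 0.05, against 4.64% of all. Atp5h, the d subunit of the ATP synthase, had -0.25, -0.65, -0.82 and -0.74 on miR-223KO arrays by probe A_51_P264186, against -0.47, 0.37, 0.80 and 0.30 on WT arrays. All WT values except that of array 1 lay above all miR-223KO values, for a log2 fold change of -0.86 ± 0.24 (SE; limma, unadjusted p = 0.0027, adjusted p = 0.985). Of the 8 spots of this probe 5 were flagged, 3 on miR-223KO and 2 on WT arrays. Its unflagged values were -0.61 on miR-223KO array 2, against -0.50 and 0.40 on WT arrays 1 and 2. The second Atp5h probe stood at -0.24 ± 0.22 and all its 8 spots were flagged. Cox4i1, the ubiquitous partner of Cox4i2, had -0.38, 0.48, 0.19 and -0.18 on miR-223KO arrays, against -0.70, -0.97, -0.05 and -0.49 on WT arrays. Its log2 fold change was 0.58 ± 0.23 (SE) with 7 of 8 spots flagged, and the groups overlapped. Ndufv1, the NADH-binding subunit of complex I, had -0.64, -0.61, -0.41 and -0.75 on miR-223KO arrays, against -0.75, -1.29, -0.99 and -0.92 on WT arrays, with all 4 miR-223KO spots and 1 WT spot flagged. It was the only 1 of the 31 probes whose groups did not overlap, against 2.72% of all, by a narrow margin between miR-223KO array 4 and WT array 1. Its log2 fold change was 0.39 ± 0.18 (SE; limma, unadjusted p = 0.0489, adjusted p = 0.985). The ubiquitous partners of the tissue-restricted isoforms stood at 0.10 ± 0.26 for Cox6a1, 0.12 ± 0.19 for Cox6b1, -0.37 ± 0.23 for Cox7b and -0.23 ± 0.22 for Cox8a, and Cox5a stood at 0.041 ± 0.19 (SE). Uqcrq and Ndufb2, dim by their member probes, were bright by these probes, with mean log2 signals of 13.9 and 11.5 and log2 fold changes of 0.084 and -0.0025.

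**Figure D4:**
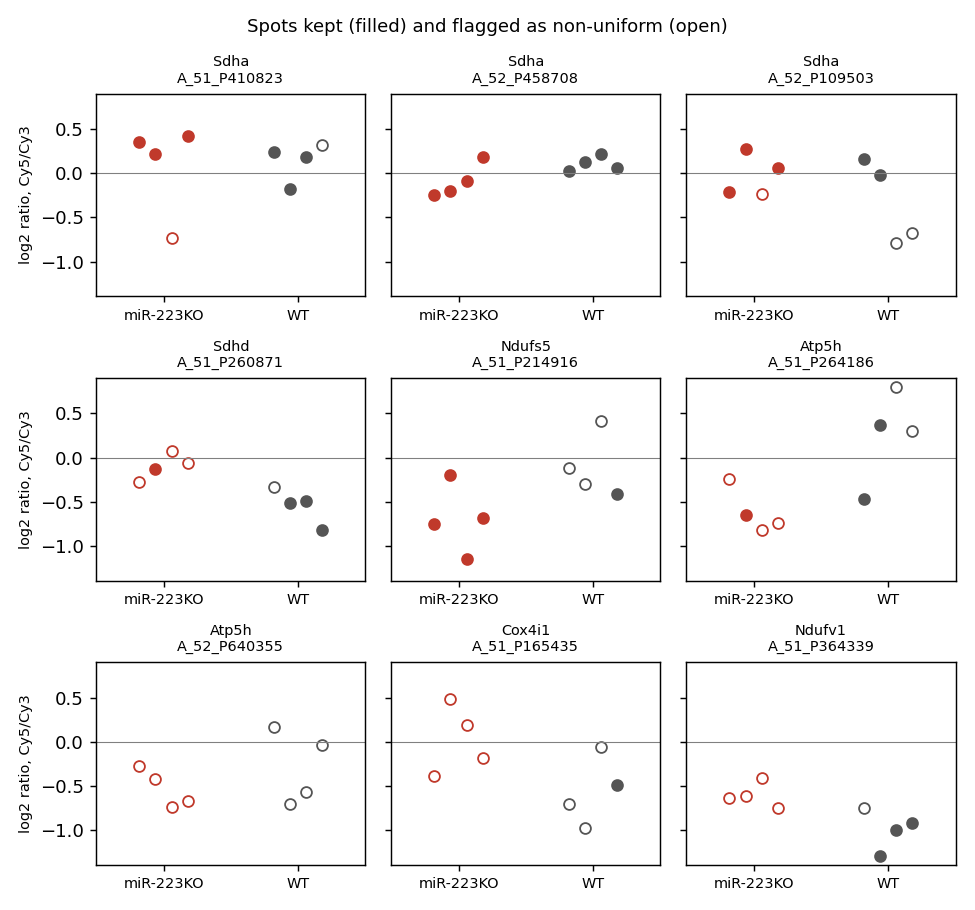
Log2 ratio of Cy5 over Cy3 on each of 4 miR-223KO (left) and 4 WT arrays (right) for 9 probes, with flagged spots kept. Filled points were unflagged and open points flagged as non-uniform; in Sdha probe A_51_P410823 the flagged miR-223KO spot at -0.73 is the lowest value, and the probes of Sdha and of Atp5h do not place the groups alike.

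Genes related to respiration showed no call either, and are set beside all 23930 probes, of which 11815 were positive and 12115 negative with a median of -0.0030. Of 34 further assembly factors tested, 22 had a positive and 12 a negative log2 fold change, with a median of 0.063 and 0 past the threshold. The smallest p among them was that of Foxred1, a complex I assembly factor, at 0.36 ± 0.20 (SE). Of 13 electron carriers and ATP export genes, 7 were positive and 6 negative, with a median of 0.031. Coq2, an enzyme of ubiquinone synthesis, had 0.55, 0.16, 0.42 and 0.07 on miR-223KO arrays, against -0.23, -0.32, -0.38 and 0.04 on WT arrays. Its groups did not overlap, with a log2 fold change of 0.52 ± 0.18 (SE; limma, unadjusted p = 0.0117, adjusted p = 0.985). Of 14 citric acid cycle and pyruvate dehydrogenase genes, 10 were positive and 4 negative with a median of 0.15, and Idh3g, a subunit of isocitrate dehydrogenase, stood at 0.45 ± 0.20 (SE; limma, unadjusted p = 0.0397). Of 17 regulators of mitochondrial biogenesis, 9 were positive and 8 negative with a median of 0.0022. Tfam, which packages mitochondrial DNA and starts its transcription, stood at 0.59 ± 0.21 (SE; limma, unadjusted p = 0.0138, adjusted p = 0.985) by its brighter probe and at -0.042 by the other. The other regulators with an unadjusted p under 0.05, named after their values were seen, were Nrf1 at -0.44 ± 0.19 and Ppargc1b at -0.47 ± 0.21 (SE). None of these lists had a gene past the adjusted threshold. An unadjusted p under 0.05 was found for 3 of 17 regulators and 1 of 13 electron carriers and ATP export genes. The counts were 1 of 14 for citric acid cycle genes and 0 of 34 for assembly factors, against 4.54% of all probes tested. The shares in the lists of 13, 14 and 17 genes were larger than that, and the difference was not tested.

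The mitochondrially encoded subunits ATP6, COX2, CYTB and ND4 had mean log2 signals of 16.1 to 16.4, and none kept enough unflagged spots to be tested. With flagged spots kept, their log2 fold changes were 0.071 ± 0.21, 0.34 ± 0.27, 0.053 ± 0.20 and 0.44 ± 0.20 in that order (SE), with a smallest unadjusted p of 0.0460, for ND4, and an adjusted p of 0.985 for it in limma. On unflagged spots, ND4, shown for its smallest p, had 1.78, 1.58, 1.53 and 1.28 on miR-223KO arrays. Its unflagged WT values were 1.08 and 0.60, on arrays 1 and 2, both of slide 1. With WT arrays 3 and 4 missing, these values cannot tell whether the groups overlapped.

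Of 10 hepatocyte markers, 5 were tested and 0 of these were positive, with a median log2 fold change of -0.22, and albumin stood at -0.66 ± 0.25 (SE; limma, unadjusted p = 0.0169, adjusted p = 0.985). The summed signal of 7 hepatocyte markers, tested or not, ran from 295116 to 525000 on miR-223KO arrays, against 386113 to 435031 on WT arrays. Of 12 macrophage and Kupffer cell markers, 9 were tested and 8 of these were positive with a median of 0.21. The summed signal of 10 of the 12, tested or not, ran from 7709 to 14165 on miR-223KO arrays, against 4920 to 9800.0 on WT arrays. Other cell types went both ways, with 0 markers past the adjusted threshold. Positive values were found for 6 of 8 endothelium, 3 of 5 neutrophil, 4 of 7 lymphocyte and 3 of 6 muscle markers tested. They were found for 3 of 8 stellate cell, 2 of 6 cholangiocyte, 1 of 4 adipocyte and 1 of 3 erythroid markers. The part of any cell type in the member values was not tested.

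In the authors' deposited table, the log2 fold changes of the 105 member probes ran from -0.88 for a dim Atp5f1 probe to 0.74 for an Ndufab1 probe, with a median of -0.014. None of them lay beyond 1 in size, beside 2.22% of all probes of the authors' deposited table. Probes of that table were dimmer, with a median log2 signal of 7.27, against 10.7 for members, and the difference in share was not tested.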

How the data were processed

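Liver RNA of 4 miR-223KO and 4 WT samples was measured in Cy5 against a Cy3 reference on 8 Agilent arrays, all in 1 dye orientation. Spots were read with Agilent Feature Extraction 12.0.3.1, per the file headers, and the deposited files give the intensity of each spot and its local background as pixel medians. A deposited column of log10 ratios, by its name in the file headers, was not used. The authors' deposited table holds log2 ratios per probe, and the difference of group means in it matched its own fold change within 5.2e-07 (log2). The genome build behind the authors' annotation is not given in the sources used here beyond the grid name mm9 in the file headers.

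From the scanner files, background was corrected with normexp (offset 50), and log2 ratios were normalised by loess within each array in limma 3.58.1 (R 4.3.3), with controls and flagged spots at weight 0. Flagged spots were left out and spots of a probe averaged. Testing needed Cy5 well above background on 4 or more of 8 arrays and 3 or more unflagged values in each group. Testing was per probe with lmFit and eBayes (two-sided, Benjamini-Hochberg over 23930 probes, threshold 0.05), and gene values use the tested probe with the highest signal, so a brighter probe lost to flags does not enter. Named genes were the 2 highest and 2 lowest of each complex, a set of core subunits and isoforms, those with an unadjusted p under 0.05, those lost to flags, and the smallest p of each related list. Members and lists were chosen with earlier results of these data known. The labels do not say that samples came from separate mice, so the p-values cover only spread among these 8 samples, which may be technical. The steps were tested on simulated data. The number of arrays limits the precision.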

Additional observations from a re-analysis of the deposited data

Results flagged for a closer look

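Among 56 groups of 4 arrays tested (groups of named members and of complex medians), 5 held 1 array far from the other values, where chance gives about 1 in 20. Ndufa3 by probe A_52_P69702 had 2 of them, with 1.11 on miR-223KO array 2 against 0.17 to 0.21 on the other miR-223KO arrays, and 1.45 on WT array 4 against -0.32 to -0.19 on the other WT arrays. Uqcr11 had 0.075 on miR-223KO array 2, against -0.50 to -0.41 on the others of its group. Cox7a2l had -0.0067 on miR-223KO array 1, against -0.37 to -0.31 on the others of its group. The median of complex IV was -0.26 on WT array 1, against -0.10 to -0.083 on the other WT arrays.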

How the results depend on the processing

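The count of oxidative phosphorylation probes past the threshold was 0 under all alternatives run. The count over all probes, 2 here, was 6 with a normexp offset of 16, 4 with Cy5 above background on all 8 arrays, 1 with flagged spots kept, with Agilent's processed signals, with median centring, with the authors' deposited log2 ratios and with Cy5 alone, 0 within slide 1 and 0 within slide 2, and 2 to 4 with an array left out (4 without miR-223KO replicate 1). Median centring in place of loess put the median over all probes at 0.071 and gave medians of 0.16 for all members, 0.16 for complex I, 0.068 for complex IV, 0.14 for complex V, 0.23 for assembly factors, 0.16 for electron carriers and 0.40 for citric acid cycle enzymes. Within slide 1 the medians were 0.083 for all members, 0.65 for complex III and -0.19 for regulators of biogenesis. Within slide 2 they were -0.11 for all members, -0.17 for complex I, -0.50 for complex III, -0.12 for complex IV and -0.027 for citric acid cycle enzymes. A fit within a slide took only probes unflagged on all 4 of its arrays, so the gene sets of the slides differ. On slide 1, Uqcrc2 was flagged on miR-223KO array 1 and Uqcr11 on WT array 2, and both dropped out. The complex III value of slide 1 is thus that of Uqcr10 alone. The authors' deposited log2 ratios gave -0.22 for complex IV and 0.25 for citric acid cycle enzymes, and Agilent's processed signals -0.072 for electron carriers. Cy5 alone, chosen after seeing the data, gave 0.085 for all members, 0.094 for complex I and 0.055 for complex IV. Leaving out an array gave medians of -0.064 to 0.027 for all members, -0.12 (without miR-223KO replicate 2) to 0.098 (without WT replicate 1) for complex I assembly factors, -0.016 to 0.13 for electron carriers and 0.053 to 0.21 for citric acid cycle enzymes, the last 2 furthest without miR-223KO replicate 2. The cause of these shifts was not tested. Of 708 values of 30 named genes under the alternatives, 681 moved by less than the spread between arrays, 18 genes changed sign under at least 1, and none passed the threshold (smallest adjusted p 0.608, limma). With the replicate block the member median was 0.011, with 0 member probes and 3 of all probes past the threshold. Deviations of same-numbered arrays correlated at -0.021 to 0.055, and 1 of 4 correlated best with its own number. Slide and scan coincided, so scan was not run as a separate block. Outlier flags, which fell on the brightest probes, limit what was measured of the main subunits.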
